A study of Mus musculus with 9 samples.

Results

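MHC class II molecules are surface proteins of macrophages, dendritic cells and B cells that present peptides to CD4+ T cells. Whether the T cell is then activated or restrained depends on further ligands beside them, among which CD80 and CD86 bind CD28 and CTLA-4, and PD-L1 and PD-L2 bind the inhibitory receptor PD-1. This account follows 10 genes of this kind, given as UniGene cluster numbers, of which 7 had values among the 17810 clusters measured. They are H2-Aa (Mm.235338) and Ciita (Mm.7992) for class II, Cd86 (Mm.1452), Cd80 (Mm.89474) and Cd40 (Mm.271833) for co-stimulation, and Cd274 (Mm.245363) and Pdcd1lg2 (Mm.116737) for PD-1 engagement. The other 3 clusters of the list, which stand for H2-Ab1, H2-Eb1 and Cd74, were not analysed here, so that class II itself rests on one chain and one regulator. The names come with the list of numbers. The value table gives numbers only, and no table used here pairs numbers with symbols, so neither these names nor the macrophage markers of the cultures could be checked.

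All 9 cultures were C57BL/6 bone marrow cells kept for 7 days in DMEM with 10% FCS and M-CSF at 30 ng/ml, the growth factor that turns marrow precursors into macrophages. From day 4 to harvest they were stimulated in 3 ways, with 3 arrays each. Cells of the group dexa+IL4 received interleukin 4 (IL-4) at 10 ng/ml and the synthetic glucocorticoid dexamethasone at 5e-07 M. Cells of the group cmB16F1 received medium conditioned by the mouse melanoma line B16F1, and cells of the group cmB16F1+dexa+IL4, termed the combination, received everything. Cells in plain medium were not analysed here, so no agent can be set against an untreated level, and dexamethasone cannot be told apart from IL-4. The labels do not say whether the arrays of a group came from separate cultures or animals, and the p-values measure only the spread between these arrays. Each value is the log2 brightness of one probe set, and levels are compared between groups for a gene, never between genes.

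As a scale for dim sets, the 27 array control sets for bacterial transcripts lay between 6.09 and 7.00, and the highest value of any array was 14.2. Pearson correlations across clusters ran from 0.991 to 0.998 within groups and from 0.947 to 0.983 between groups. Ciita lay under 7.00 in all 9 arrays and Pdcd1lg2 in 2 of 3 cmB16F1 arrays, while the other 5 genes lay above it in every array. By limma, adjusted over all features, 2 of the 7 genes differed between the combination and dexa+IL4, 3 between the combination and cmB16F1, and 3 between dexa+IL4 and cmB16F1. These counts involve the same 3 genes, H2-Aa, Cd274 and Pdcd1lg2. Over all clusters the corresponding shares were 17.9%, 14.1% and 25.0%.

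**Figure D1:**
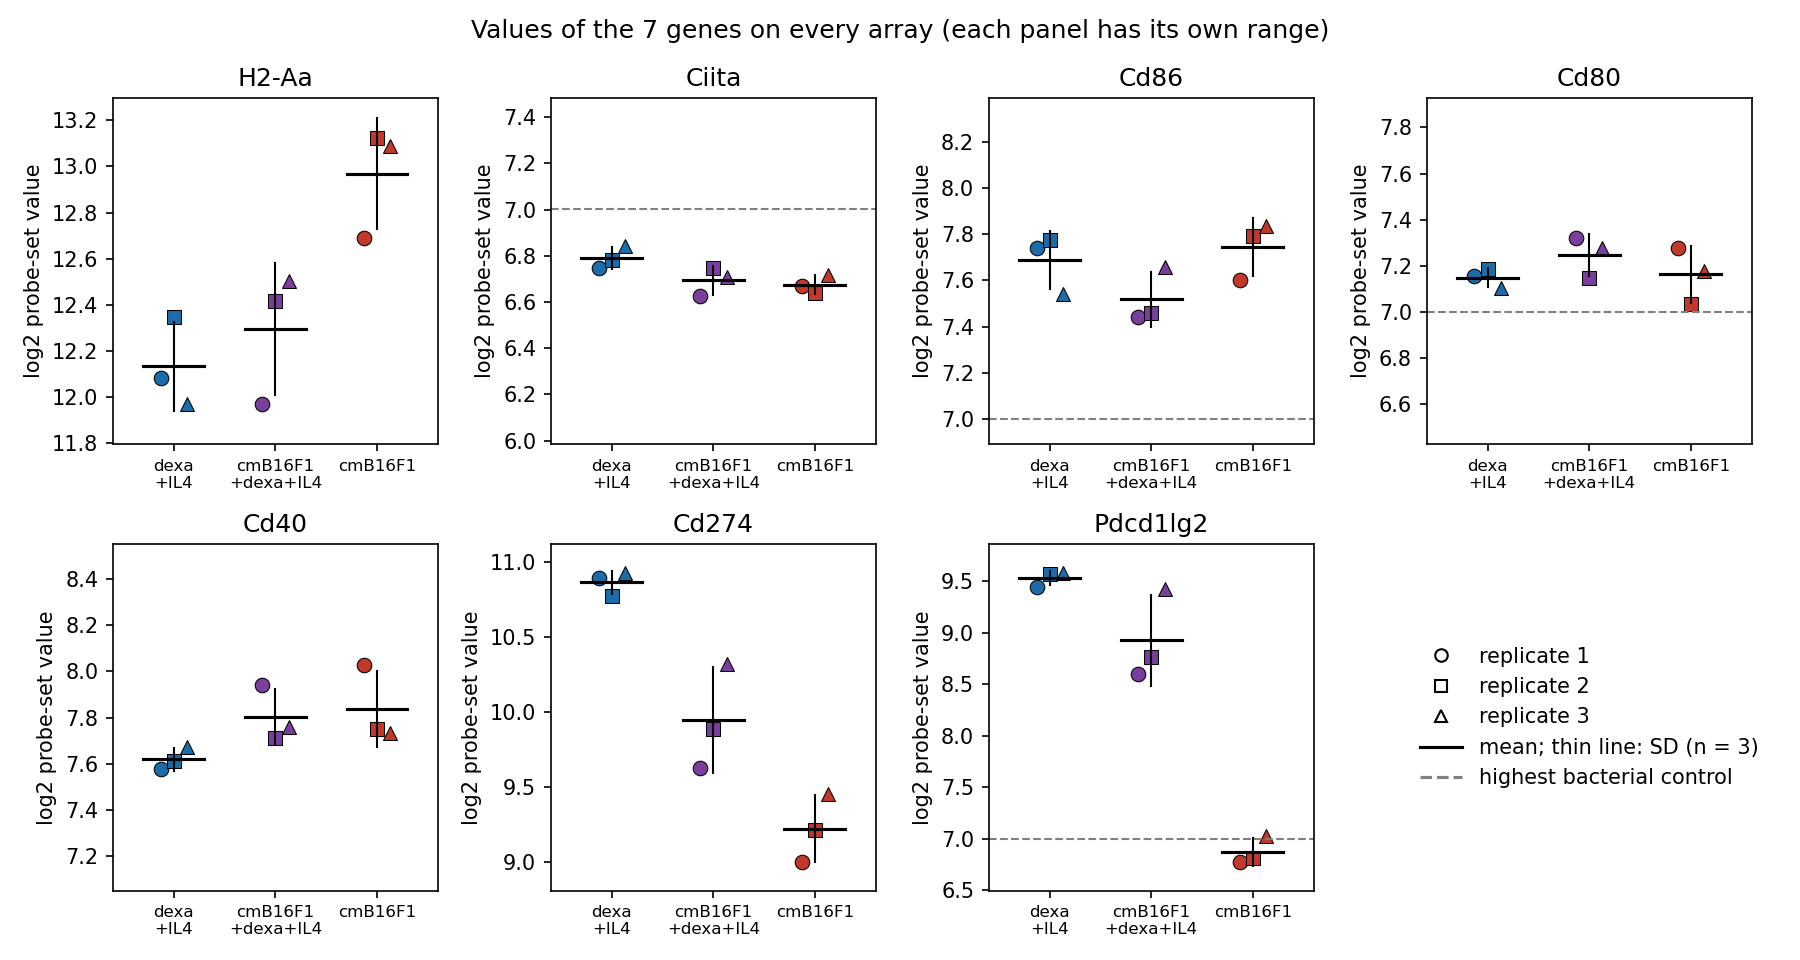
Log2 probe-set values of the 7 genes on the 9 arrays, with 1 panel per gene, the 3 groups on the horizontal axis and the replicate number as the marker shape. Horizontal lines are group means and thin vertical lines 1 SD (n = 3), and the dashed line is the highest bacterial control, 7.00; Cd274 and Pdcd1lg2 are highest in dexa+IL4, H2-Aa is highest in cmB16F1, and the remaining genes move little.

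H2-Aa, which encodes the alpha chain of the class II molecule I-A, was lower wherever dexamethasone and IL-4 were present. Its values were 12.69, 13.12 and 13.09 in cmB16F1, 11.97, 12.42 and 12.50 in the combination, and 12.08, 12.35 and 11.97 in dexa+IL4, for replicates 1 to 3. All cmB16F1 arrays lay above all 6 others, and the remaining groups overlapped. Set against cmB16F1 at 12.97 ± 0.24 (SD, n = 3), H2-Aa was 1.78-fold lower in dexa+IL4, at 12.13 ± 0.19, and 1.59-fold lower in the combination, at 12.30 ± 0.29. The log2 differences were -0.83 (SE 0.16) and -0.67 (SE 0.16), with adjusted p = 0.003733 and 0.01852 by limma. The second call was lost without cmB16F1 replicate 2 (difference -0.59, limma adjusted p = 0.07109) or its replicate 3 (-0.61, adjusted p = 0.06599). It held with the replicate number as a block in the fit (SE 0.10, limma adjusted p = 0.002451). Between the combination and dexa+IL4 H2-Aa differed by 0.16 (limma adjusted p = 0.5588), with a 95% confidence interval of -0.19 to 0.52, and by -0.0939 after scaling to the hybridization controls. An effect of conditioned medium on H2-Aa beside dexamethasone and IL-4 was thus not detected, within an interval that still holds a 1.43-fold rise. In bulk RNA, fewer cells that express a gene and less RNA of it per cell cannot be told apart, which holds for every value given here.

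Class II genes share short promoter elements, the X and Y boxes, which are bound by the RFX and NF-Y complexes and on which the class II transactivator assembles. The RefSeq promoter of H2-Aa (GRCm38.p6, chr17:34287774-34288073, minus strand) is shown because H2-Aa is the class II gene with a change. It runs from 250 bases before the transcription start to 50 after it, 5′ to 3′, and capitals mark matches to the motifs searched.

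H2-Aa: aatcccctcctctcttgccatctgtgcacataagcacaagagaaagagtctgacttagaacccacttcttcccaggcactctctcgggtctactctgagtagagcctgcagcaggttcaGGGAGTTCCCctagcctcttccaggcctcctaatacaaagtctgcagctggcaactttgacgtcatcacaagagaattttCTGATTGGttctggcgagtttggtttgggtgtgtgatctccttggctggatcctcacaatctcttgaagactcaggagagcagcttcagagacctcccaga

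The run CTGATTGG at -51 to -44 is the core of the Y box, and 4.1% of the 32851 mouse promoters of this length held these letters on either strand. The run at -131 to -122 matched GGGANTTNCC, an NF-kB-type motif found in 1.2% of promoters. No match to a 14-letter X box pattern (CCNNNNNACNNATG, in 2.55% of promoters) was in this window. A search for fixed letters misses an X box that departs from them, so the window cannot be said to lack one.

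Ciita encodes the class II transactivator, the regulator that class II transcription depends on. Its values were 6.67, 6.64 and 6.72 in cmB16F1, 6.63, 6.75 and 6.71 in the combination, and 6.75, 6.78 and 6.84 in dexa+IL4. Every array lay inside the bacterial control range, where a value is not told apart from background, and no fold is given. The dexa+IL4 arrays lay just above the cmB16F1 arrays, by a difference in means of 0.11 that missed the threshold (limma adjusted p = 0.06982). The gene that class II expression rests on was thus not measurable with this set.

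Cd86 and Cd80 encode the B7 ligands of CD28 and CTLA-4, and Cd40 encodes the receptor through which T cells bearing CD40 ligand activate the presenting cell. None of them passed the test in any of the 3 comparisons. Cd86 was at 7.74, 7.78 and 7.54 in dexa+IL4, then at 7.44, 7.46 and 7.66 in the combination and at 7.60, 7.79 and 7.84 in cmB16F1. The combination had the lowest mean, 7.52 ± 0.12 (SD, n = 3), but the arrays of every group overlapped with those of the others. The differences were -0.23 from cmB16F1 and -0.17 from dexa+IL4, with limma adjusted p = 0.1202 and 0.2155 and 95% confidence intervals of -0.42 to -0.04 and -0.36 to 0.02. Both passed after scaling to the hybridization controls, with differences of -0.44 and -0.42 (limma adjusted p = 0.01102 and 0.01094), a scaling under which the median difference of all clusters was -0.20 and -0.26 in the same comparisons.

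Cd40 was at 7.58, 7.61 and 7.67 in dexa+IL4, below every array of the other groups. Those stood at 7.94, 7.71 and 7.76 in the combination and at 8.03, 7.75 and 7.73 in cmB16F1. The gap was narrow, at 0.06 to the nearest cmB16F1 array and 0.04 to the nearest combination array. The dexa+IL4 mean of 7.62 ± 0.05 (SD, n = 3) differed by -0.22 from cmB16F1, and the combination mean by 0.18 from dexa+IL4. Neither difference passed over all clusters (limma adjusted p = 0.08695 and 0.165). The first passed with array weights (limma adjusted p = 0.04209), with the adjusted p at most 0.6773 over all 18 alternatives. The second passed under none of its 18, and groups without overlap are common in these data, at 44.3% and 36.1% of all clusters in these comparisons. The 95% confidence interval of dexa+IL4 minus cmB16F1 ran from -0.40 to -0.03.

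Cd80 was the flattest of the genes above background. Its values ran from 7.10 to 7.19 in dexa+IL4, from 7.15 to 7.32 in the combination and from 7.03 to 7.28 in cmB16F1, little above the highest bacterial control. Its differences of 0.10, 0.09 and -0.01 in the 3 comparisons all missed the threshold (limma adjusted p = 0.3456, 0.4767 and 0.9024). So close to background a change may be compressed, and these values set no firm limit on one. Cd86 and Cd40 may be affected too, with group means 0.52 to 0.74 and 0.62 to 0.84 above the highest bacterial control.

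The PD-1 ligands moved most. Cd274 encodes PD-L1, which many cell types carry, and Pdcd1lg2 encodes PD-L2, which is mainly found on macrophages and dendritic cells and is known to be induced by IL-4 in mouse macrophages. Levels of both were highest with dexamethasone and IL-4 alone, intermediate with all agents and lowest with conditioned medium alone, with no overlap of arrays between any of the groups. Of all clusters, 36.1% did not overlap between the combination and dexa+IL4, 28.5% between the combination and cmB16F1, and 44.3% between dexa+IL4 and cmB16F1.

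Cd274 was at 10.89, 10.78 and 10.93 in dexa+IL4, at 9.63, 9.89 and 10.32 in the combination and at 9.0, 9.22 and 9.45 in cmB16F1. The dexa+IL4 arrays lay close together, while the combination was spread over more of the scale, with an SD of 0.35 against 0.08 (n = 3 each). Against cmB16F1, dexa+IL4 cells had 3.12-fold more Cd274 signal, a log2 difference of 1.64 (SE 0.16, limma adjusted p = 6.185e-05). Conditioned medium added to dexamethasone and IL-4 went with a 1.89-fold lower value, a difference of -0.92 (95% confidence interval -1.28 to -0.56, limma adjusted p = 0.003672). Dexamethasone and IL-4 added to conditioned medium went with a 1.65-fold higher value, a difference of 0.72 (95% confidence interval 0.36 to 1.09, limma adjusted p = 0.01404). These 3 calls held under all 18 alternative settings tried, with the adjusted p at most 0.04898. On the log2 scale the combination stood 44.1% of the way from cmB16F1 to dexa+IL4.

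Pdcd1lg2 was at 9.45, 9.57 and 9.58 in dexa+IL4, at 8.59, 8.76 and 9.43 in the combination and at 6.78, 6.81 and 7.02 in cmB16F1. In the last group its mean, 6.87 ± 0.13 (SD, n = 3), was within the bacterial control range, and folds against it are lower bounds, taken against the highest bacterial control of an array where that was above the gene's own value. On that basis the estimate by which Pdcd1lg2 exceeded cmB16F1 was at least 5.92-fold in dexa+IL4 and at least 3.90-fold in the combination. These bounds allow for background but not for the spread between arrays. The 95% confidence intervals of the measured folds reached below them, at 4.82 to 8.31 in dexa+IL4 and 3.17 to 5.47 in the combination. The measured log2 differences were 2.66 and 2.06, each with an SE of 0.18 (adjusted p = 4.325e-06 and 3.564e-05 by limma). Both calls held under all 18 alternative settings.

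Conditioned medium added to dexamethasone and IL-4 went with a 1.52-fold lower Pdcd1lg2, a step that is less certain than that of Cd274. The means were 8.93 ± 0.44 in the combination and 9.53 ± 0.07 in dexa+IL4 (SD, n = 3), and the highest combination array, replicate 3 at 9.43, lay only 0.02 below the lowest dexa+IL4 array. The difference of -0.60 (95% confidence interval -0.996 to -0.21) just passed the threshold (limma adjusted p = 0.04083). It was lost under 7 of 18 alternatives, with the limma adjusted p at most 0.1319 over all 18. These 7 were leaving out dexa+IL4 replicate 1, 2 or 3, combination replicate 1 or 2 or cmB16F1 replicate 2, and fitting the arrays of the compared groups alone, where adjusted p was 0.06015. The difference was negative under all 18, between -0.86 and -0.44.

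The spread of both ligands followed the replicate number in the groups with conditioned medium. Replicate 3 was the highest and replicate 1 the lowest array for Cd274 and for Pdcd1lg2, in the combination and in cmB16F1 alike. For Pdcd1lg2 the cmB16F1 values lay within or just above the bacterial control range. The order was not particular to these groups. In dexa+IL4 Pdcd1lg2 had it too, over a narrow range (9.45, 9.57 and 9.58). Cd274 was again highest in replicate 3 there, but its lowest array was not replicate 1. Across clusters, arrays of the combination and cmB16F1 with the same number deviated together (correlations of 0.617, 0.565 and 0.662), and the numbers were taken to pair them. Within same-numbered arrays the combination exceeded cmB16F1 by 0.62, 0.67 and 0.87 for Cd274. For H2-Aa it fell short in each pair, with differences of -0.72, -0.71 and -0.59. For Pdcd1lg2, with cmB16F1 near background, the combination array was the higher of each pair, by 1.82, 1.95 and 2.41. That direction already follows from the groups not overlapping. In each of these genes the differences spanned less than the combination arrays themselves.

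Cd274 and Pdcd1lg2 are neighbours on chromosome 19 and lie on the same strand, with no other protein-coding gene between them in the RefSeq gene table of GRCm38.p6. Their promoters are shown because both genes were highest in dexa+IL4, intermediate in the combination and lowest in cmB16F1. The sequences come from the same window, with matches in capitals as for H2-Aa. The Cd274 promoter is chr19:29367188-29367487 and that of Pdcd1lg2 chr19:29410669-29410968, both on the plus strand.

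Cd274: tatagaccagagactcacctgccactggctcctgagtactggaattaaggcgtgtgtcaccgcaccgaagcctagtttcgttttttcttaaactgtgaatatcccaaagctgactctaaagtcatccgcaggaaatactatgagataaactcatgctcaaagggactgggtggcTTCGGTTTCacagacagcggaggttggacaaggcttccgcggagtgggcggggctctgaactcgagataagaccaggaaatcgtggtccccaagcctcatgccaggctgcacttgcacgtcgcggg

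Pdcd1lg2: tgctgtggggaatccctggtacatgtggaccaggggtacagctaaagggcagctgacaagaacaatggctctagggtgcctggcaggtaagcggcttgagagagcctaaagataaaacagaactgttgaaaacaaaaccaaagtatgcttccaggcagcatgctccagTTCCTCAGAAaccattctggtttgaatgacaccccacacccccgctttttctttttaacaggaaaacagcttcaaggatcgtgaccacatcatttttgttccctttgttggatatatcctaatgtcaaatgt

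The Cd274 window held GAAANNGAA, a repeat of the kind bound by interferon regulatory factors, on the other strand at -76 to -68 (8.56% of promoters had it). The Pdcd1lg2 window held TTCNNNNGAA, the palindrome with a spacer of 4 that STAT6 prefers, at -82 to -73 (6.95% of promoters). Neither window held both. The Cd80 promoter, the fourth with an entry among the 7 genes, had no match to any of the motifs searched. These are matches of letters, and no binding was measured.

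**Figure D2:**
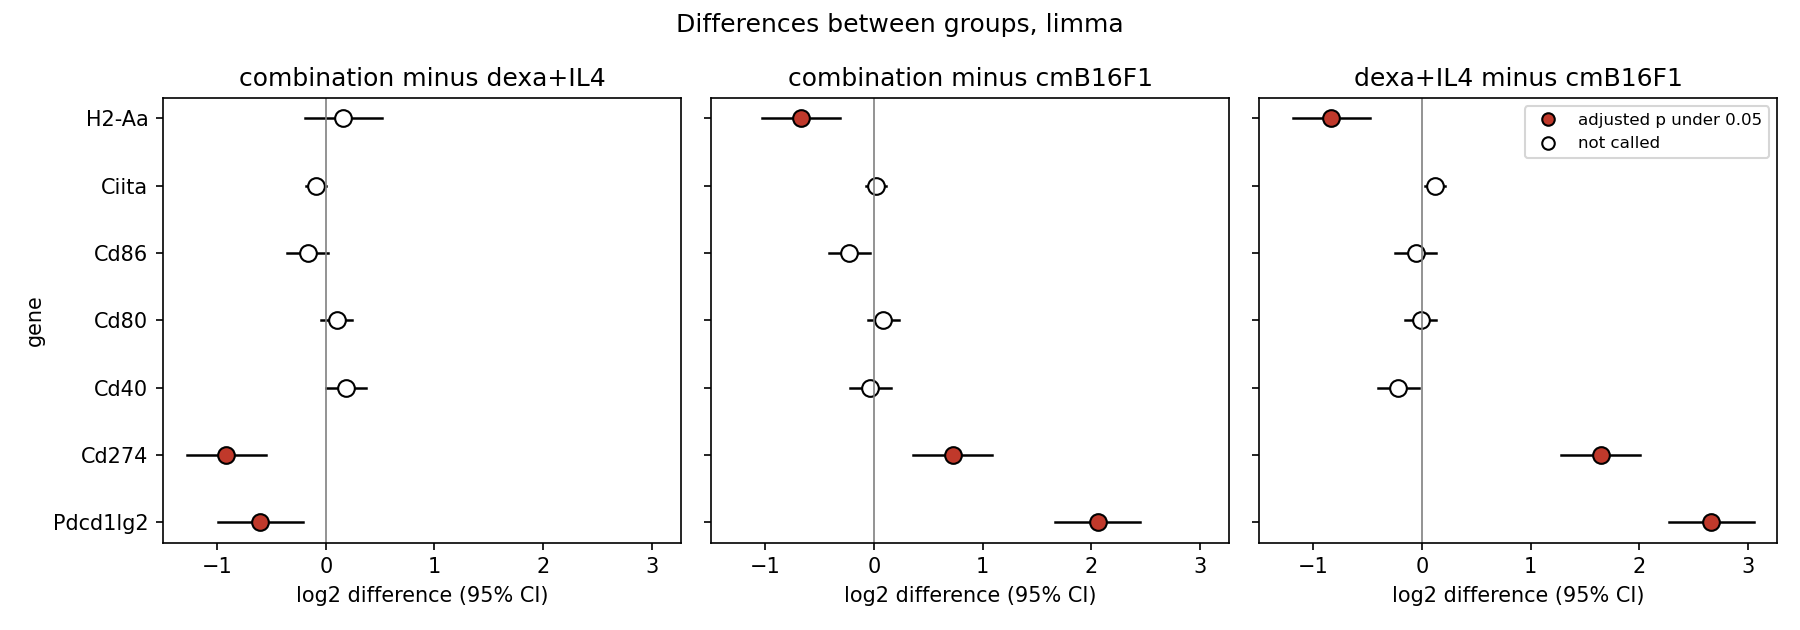
Limma log2 differences of the 7 genes in the 3 comparisons (points) with 95% confidence intervals (lines), filled where the adjusted p was under 0.05. Cd274 and Pdcd1lg2 are called in all 3 panels, H2-Aa in both panels that involve cmB16F1, and the other 4 genes in none.

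Set side by side, the comparisons gave the following counts. Against dexa+IL4 the combination was lower in 2 of the 7 genes and higher in 0, where over all clusters 9.0% were called lower and 8.88% higher. Against cmB16F1 it was higher in 2 and lower in 1, with 6.56% and 7.57% over all clusters. In dexa+IL4 against cmB16F1, 2 were higher and 1 lower, with 12.8% and 12.2% over all clusters. Groups did not overlap in 3, 3 and 5 of the 7 genes, compared with 36.1%, 28.5% and 44.3% of all clusters in the same order. The comparisons share arrays, so the counts are not independent of each other. With 7 genes, counts of 2 and 3 are few, and the median difference of the genes, at -0.10, 0.02 and -0.01, was near that of all clusters, at -0.003, 0.01 and 0.02. The median size of the difference was larger in the 7 genes, at 0.17, 0.23 and 0.22 against 0.07, 0.06 and 0.08 over all clusters. These medians compare unlike sets, since 60.5% of all clusters but 6 of the 7 genes had a mean above the highest bacterial control. With only such sets tested, 30.8%, 23.3% and 39.6% of clusters were called, and 2, 3 and 3 of the genes. Of the clusters called between the combination and dexa+IL4, 49.7% were higher, a share that was 38.1% with median centring and 5.34% with scaling to the hybridization controls. Between the combination and cmB16F1 the share was 46.4%, and 11.7% with the latter scaling. Cd274, Pdcd1lg2 and H2-Aa kept the direction of each of their calls under both.

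**Figure D3:**
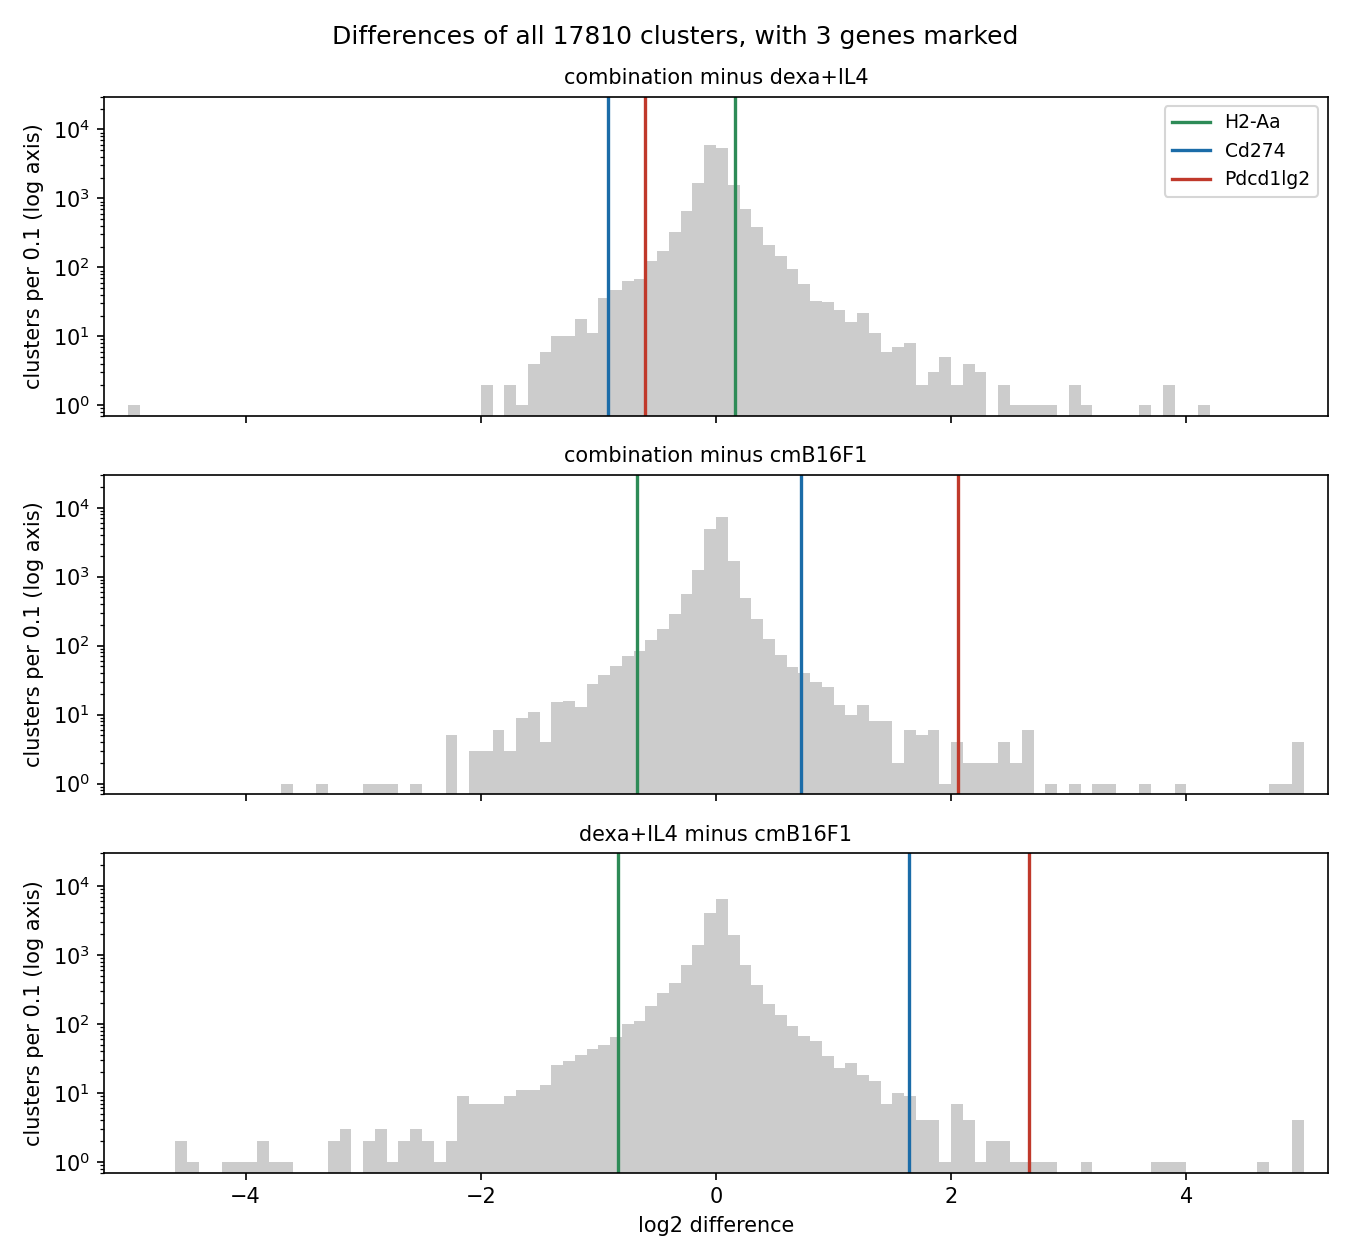
Number of clusters (log axis) per 0.1 of log2 difference for all 17810 clusters in the 3 comparisons, with H2-Aa, Cd274 and Pdcd1lg2 as vertical lines; the 1, 4 and 4 clusters beyond 5 in size are drawn in the outermost bins. Pdcd1lg2 lies in the far right tail in both comparisons with cmB16F1, and H2-Aa lies left of the centre in the same panels.

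The profiles of the genes over the 9 arrays, each centred on its own mean, were also compared by their root mean square difference on the log2 scale. The profile nearest to that of Pdcd1lg2 among the other 6 genes was that of Cd274, at 0.58, and the next was at 1.12. For Cd274 the nearest was Pdcd1lg2 as well, but Ciita, within background, was almost as near, at 0.65. Clusters outside the list were nearer to each ligand than the ligands were to each other. The nearest lay at 0.07 from Cd274 and at 0.21 from Pdcd1lg2. H2-Aa and Pdcd1lg2 were the farthest apart, at 1.51. Among all other clusters, the profiles nearest to H2-Aa were Mm.15406, at 0.11, and Mm.254067, at 0.13. The means of Mm.15406 were 8.65 in cmB16F1, 7.94 in the combination and 7.84 in dexa+IL4, and those of Mm.254067 were 12.12, 11.21 and 11.07. These clusters were chosen for their likeness over these arrays, and no table used here names them.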

How the data were processed

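Gene expression was measured on 1-colour Affymetrix arrays, 1 per sample, 3 per group. The values deposited by the authors are normalized log2 probe-set values, a scale taken from their range. How background, normalization and summary were done, and with which chip definition, is not given in the sources used here. Per the labels' protocols, biotinylated cRNA was made from total RNA.

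Of 17931 probe sets, 64 were control sets. Where a cluster had plus and minus sets (57 clusters, none of the 7 genes), the set with the higher mean was used. Groups were compared with limma 3.58.1 in R 4.3.3 (lmFit, eBayes with a mean-variance trend, 1 model of all 9 arrays with group as its only term, 6 residual degrees of freedom). Adjusted p-values (Benjamini-Hochberg, threshold 0.05) are over 17829 features, the clusters and 19 mouse control sets, with no filter. The procedure was tested on simulated data. The number of arrays limits the precision.

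The rule for named genes took all genes of the list and the 2 clusters nearest to the class II chains, here H2-Aa alone. The list and these rules were chosen with earlier results of these data known. The lists of further pathway genes and cell type markers could not be looked up, since no table pairs symbols with cluster numbers. Promoters are RefSeq's, matched by symbol for 4 of the 7 genes. Motifs were searched on both strands, and 1 planned motif is not reported here.

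Alternatives were quantile normalization, median centring, scaling to the hybridization controls, no trend, array weights, only the compared groups, the replicate number as a block, only sets above the highest bacterial control (which drops Ciita), the lower of plus and minus sets, and leaving out each of the 9 arrays. Equal replicate numbers were taken to pair the combination with cmB16F1 (correlations of deviations 0.617, 0.565 and 0.662), but not the combination with dexa+IL4 (0.224, -0.0672 and 0.116) or dexa+IL4 with cmB16F1 (0.236, -0.0234 and 0.167).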

Additional observations from a re-analysis of the deposited data

How the results depend on the processing

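Of 375 recomputed differences of single genes, 343 kept their direction and their side of the threshold, 9 lost and 9 gained a call, and 14 turned sign. None of the calls of Cd274 was lost, and those lost were of H2-Aa against cmB16F1 (2) and of Pdcd1lg2 between the combination and dexa+IL4 (7). The number of the 7 genes called between the combination and dexa+IL4 was 4 with scaling to the hybridization controls, where 39.9% of all clusters were called, and 1 with only the compared arrays, where 17.7% were, against 2 and 17.9% as reported. Leaving out 1 array gave 1 to 2 in that comparison, where 11.5% to 18.8% of all clusters were called. It gave 2 to 3 between the combination and cmB16F1 (10.9% to 13.0% of clusters) and 3 to 4 between dexa+IL4 and cmB16F1 (18.1% to 26.5%). With the replicate block the last comparison called 5 genes, as it did with array weights, while the share of all clusters called rose from 25.0% to 29.0% and 31.5%. Both added Ciita, within background, and Cd40 (limma adjusted p = 0.04926 and 0.04625 with the block). In the paired comparison of the combination with cmB16F1 the block called 3 genes, as without it, with 17.1% of all clusters called against 14.1%. The limma adjusted p with the block was 0.002451 for H2-Aa, 0.001679 for Cd274 and 1.222e-05 for Pdcd1lg2. Beyond Ciita and Cd40, the block changed no call of the 7 genes.

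The differences that turned sign belonged to genes that missed the threshold. With scaling to the hybridization controls these were, against dexa+IL4, H2-Aa at -0.0939, Cd80 at -0.157 and Cd40 at -0.0711, and against cmB16F1, Ciita at -0.193 and Cd80 at -0.127. In dexa+IL4 against cmB16F1 Cd80 was 0.0298 with that scaling, 0.00128 with median centring and 0.0154 with array weights. Leaving out 1 array gave -0.0784 to 0.0434 for Cd80 and -0.128 to 0.0143 for Cd86 in this comparison, and -0.100 to 0.0618 for Cd40 and -0.00755 to 0.0532 for Ciita between the combination and cmB16F1. The cause was not tested.

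Over all clusters, 3184 were called between the combination and dexa+IL4, but 7104 with scaling to the hybridization controls, 2044 without dexa+IL4 replicate 1 and 2096 without its replicate 3. In dexa+IL4 against cmB16F1 the count of 4454 became 1893 with that scaling.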
